A study of Mus musculus with 6 samples.

Results

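The miR-181 family and the pair miR-221 and miR-222, miRNAs studied in vascular inflammation and in liver fibrosis, were followed through the small RNA of hepatocyte extracellular vesicles (EVs). Members were taken by name as the main mature arms: mmu-miR-181a-5p, mmu-miR-181b-5p, mmu-miR-181c-5p, mmu-miR-181d-5p, mmu-miR-221-3p and mmu-miR-222-3p, given here without the mouse prefix. All 6 were listed, among 474 miRNAs in every library. The 3 HFHC-EV libraries came from primary hepatocytes of HFHC-fed ApoE knockout (ApoE-/-) mice, HFHC being the submitters' name for the diet, and the 3 Chow-EV libraries from those of chow-fed ApoE knockout mice. Both groups thus carry the knockout, which makes mice prone to high plasma cholesterol. The labels call the libraries of each diet biological replicates 1 to 3. No source used here gives the mice's age and sex, the time on the diet or the number of animals behind a library. The p-values therefore set the diet difference against the spread between these libraries, which may differ from that between mice. Values are RPM, the reads of a miRNA scaled to a common library size. One read covers a whole mature miRNA, so levels of different miRNAs need no length correction. Whether different miRNAs were captured with equal efficiency was not tested, so ranks and ratios between them are of reads, not molecules.

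A miRNA is cut from an RNA hairpin, and usually 1 of its arms is loaded into an Argonaute protein, where bases 2 to 8 from the 5′ end, the seed, pair with target messenger RNAs. Members of the miR-181 family tune antigen receptor signalling in lymphocytes, and miR-181b dampens NF-kappaB signalling in mouse endothelium. miR-221 and miR-222 target the growth factor receptor Kit and the cell cycle inhibitor Cdkn1b, act in endothelial and vascular smooth muscle cells, and are known from activated hepatic stellate cells, the collagen-producing cells of liver scarring.

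The mature sequences (RefSeq, GRCm38.p6; all 6 matched by name) are shown because the seed defines each family and because near-identity limits how reads can be assigned. The seed is in capitals.
miR-181a-5p: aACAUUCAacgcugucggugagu
miR-181b-5p: aACAUUCAuugcugucgguggguu
miR-181c-5p: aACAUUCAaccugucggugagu
miR-181d-5p: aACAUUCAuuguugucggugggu
miR-221-3p: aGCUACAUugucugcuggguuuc
miR-222-3p: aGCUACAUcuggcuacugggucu

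The 4 miR-181 members share 1 seed and were the only listed miRNAs with it among those matched to a sequence (348 of the 474). miR-221-3p and miR-222-3p share the other. Read from the 5′ end, miR-181a-5p and miR-181b-5p differ at 3 positions (A9U, C10U and A21G, with the miR-181a-5p base first), and miR-181b-5p and miR-181d-5p at 1 (C12U). miR-181c-5p equals miR-181a-5p with 1 base left out, at position 11. No source used here says how reads that match several miRNAs were assigned, so values of the rare miR-181c-5p and miR-181d-5p are uncertain beside their abundant relatives. miR-221-3p and miR-222-3p differ at 12 of 23 positions outside the seed.

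The loci lie in clusters on GRCm38. Mir181a-1 (chromosome 1, 137966455 to 137966541, + strand) and Mir181b-1 are 97 bases apart in exons of the lincRNA A430106G13Rik. Mir181a-2 (chromosome 2, 38852735 to 38852810, + strand) and Mir181b-2 are 1019 bases apart, antisense to an intron of Nr6a1, a nuclear receptor gene. Mature miR-181a-5p and miR-181b-5p are the same from either locus. Mir181d (chromosome 8, 84178716 to 84178787, − strand) lies in an intron of Nanos3, a germ cell gene, and the mature miR-181c-5p was placed on the same strand at 84178924 to 84178945. Mir221 (chromosome X, 19146294 to 19146388, − strand) and Mir222 are 504 bases apart and overlap no other annotated gene.

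The libraries held 27673 to 65775 miRNA reads, and replicate 3 held the most in both diets. One read was worth about 0.05 RPM. Of the marker miRNAs listed for hepatocytes, 7 of 8 were listed, with a summed level of 13.5 to 27.4 RPM in HFHC-EV and 5.62 to 17.1 RPM in Chow-EV. The defining hepatocyte miRNA, miR-122-5p, had 14.0 RPM in HFHC-EV replicate 1 and 10.6 RPM in Chow-EV replicate 1. It had only 0.938 and 1.05 RPM in HFHC-EV replicates 2 and 3, and 0.745 and 1.09 RPM in Chow-EV replicates 2 and 3. White blood cell markers (4 of 5 listed) summed to 1.36 to 6.10 RPM in HFHC-EV and 3.53 to 7.99 RPM in Chow-EV. The sum was lower in HFHC-EV in all 3 same-numbered pairs, as were miR-150-5p and miR-155-5p. For miR-223-3p the pair ratios of HFHC-EV over Chow-EV were 1.02, 0.656 and 1.21. miR-142a-5p reached only 0.051 RPM, in Chow-EV replicate 1 alone. The red blood cell miRNA miR-451a reached 136 RPM in HFHC-EV replicate 1 and 102 RPM in Chow-EV replicate 1, and was under 10 RPM in the other 4 libraries.

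By mean RPM, the order was miR-181a-5p (rank 26 of the listed miRNAs), miR-222-3p (rank 30), miR-181b-5p (rank 52), miR-221-3p (rank 62), miR-181d-5p (rank 195) and, last, miR-181c-5p. The ranges of neighbours over the libraries overlapped, except for miR-221-3p and miR-181d-5p, where the lowest miR-221-3p value, 0.646 RPM, lay above the highest miR-181d-5p value, 0.523 RPM. Within each of the 6 libraries miR-222-3p was also above miR-181b-5p, whereas the remaining 3 neighbouring pairs changed order or tied in at least 1 library. In replicates 1 and 2 of both diets miR-181a-5p stood well above miR-222-3p, with miR-222-3p at 0.322 and 0.371 of its level in HFHC-EV and 0.318 and 0.302 in Chow-EV. In replicate 3 the order turned, and the ratio was 1.07 in HFHC-EV and 1.51 in Chow-EV.

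**Figure D1:**
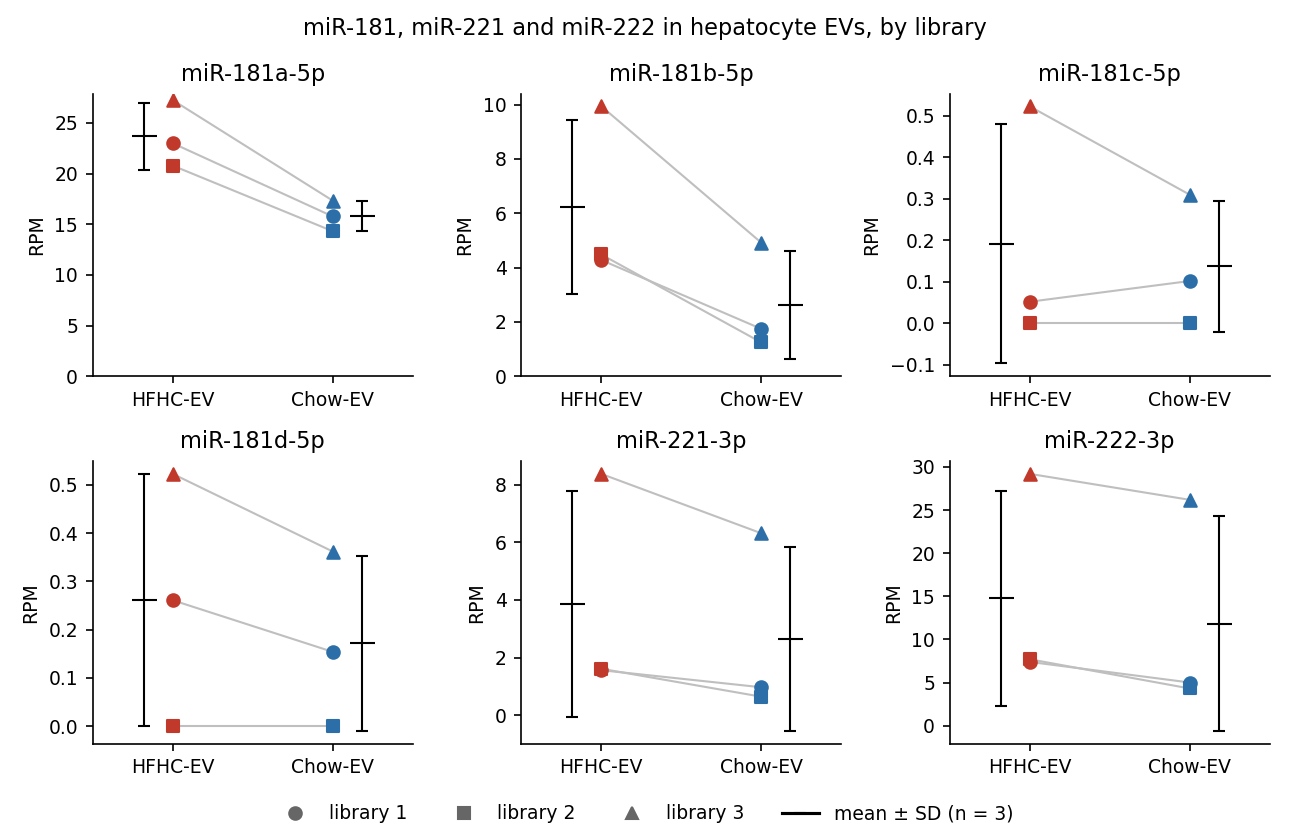
RPM of the 6 miRNAs in each library (y axes, linear, scaled per panel), HFHC-EV left and Chow-EV right, with marker shape for the replicate number, grey lines joining libraries of the same number, and mean ± SD over 3 libraries in black. miR-181a-5p is the panel in which the diets do not overlap, and replicate 3 is the highest library of its diet in every panel.

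miR-181a-5p was higher in vesicles from HFHC-fed mice on the per-million scale. It had 23.0, 20.8 and 27.3 RPM in HFHC-EV replicates 1, 2 and 3, against 15.8, 14.3 and 17.3 RPM in Chow-EV replicates 1, 2 and 3. Every HFHC-EV library lay above every Chow-EV library, which held for 42.3% of the tested miRNAs (44 of 104), with 6.73% in the opposite order. The means were 23.7 ± 3.29 RPM in HFHC-EV and 15.8 ± 1.51 RPM in Chow-EV (SD, n = 3 each), from 1361 and 931 reads. In limma-trend on log2(RPM + 1), which understates the change of low miRNAs, its log2 fold change was 0.55 (SE 0.14, 95% confidence interval 0.18 to 0.92, limma adjusted p = 0.0426). With this threshold of 0.05 on the adjusted p, 24.0% of the tested miRNAs were called higher (25) and 4.81% lower (5). Of the 4 tested members miR-181a-5p was the only one called, and 46.2% of the tested miRNAs had a higher log2 fold change.

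The call was lost when any 1 of 5 libraries was left out: limma adjusted p = 0.109, 0.0593 and 0.105 without HFHC-EV replicates 1, 2 and 3, and 0.122 and 0.136 without Chow-EV replicates 1 and 2. Without Chow-EV replicate 3 it was 0.0499. TMM scaling, which removes a difference shared by most miRNAs, gave a log2 fold change of −0.068 (95% confidence interval −0.47 to 0.33, limma adjusted p = 0.95). Over all tested miRNAs the median log2 fold change was 0.51 in RPM and 0.066 after TMM scaling, where 0.962% were called higher and 5.77% lower.

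As a share of the miRNA reads, miR-181a-5p was 0.956% (exact binomial 95% confidence interval 0.869 to 1.05), 0.944% (0.854 to 1.04) and 0.792% (0.726 to 0.863) in HFHC-EV, against 1.03% (0.918 to 1.15), 1.04% (0.925 to 1.17) and 0.833% (0.746 to 0.927) in Chow-EV. These intervals cover counting error only, since PCR copies were not told apart from molecules. Within each pair of same-numbered libraries the HFHC-EV share was the lower, with overlapping intervals.

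miR-181b-5p showed its diet difference within pairs of same-numbered libraries. It had 4.28, 4.48 and 9.94 RPM in HFHC-EV, against 1.74, 1.24 and 4.92 RPM in Chow-EV, each in the order of replicates 1 to 3. The diets overlapped, because Chow-EV replicate 3 lay above HFHC-EV replicates 1 and 2, while HFHC-EV was higher in each of the 3 pairs, by 2.46, 3.61 and 2.02 times. For miR-181a-5p these ratios were 1.46, 1.45 and 1.57. All 4 tested members were higher in HFHC-EV in 3 of 3 pairs, as were 70.2% of all tested miRNAs, while 9.62% were lower in all 3.

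Without the replicate number in the fit, miR-181b-5p had a log2 fold change of 1.04 (SE 0.49, 95% confidence interval −0.21 to 2.29, limma adjusted p = 0.179). Same-numbered libraries deviated together, so the replicate number was also used as a block, and miR-181b-5p was then called higher (SE 0.15, limma adjusted p = 1.06e-10), along with 66.3% of the tested miRNAs, while 7.69% were called lower. It was also called with the block after TMM scaling (log2 fold change 0.56, SE 0.16, limma adjusted p = 0.00463), where 29.8% were called higher and 19.2% lower, and it was the only member called there. In edgeR's quasi-likelihood test on whole reads with the block its log2 fold change was 0.68 (adjusted p = 0.0249, with 24.0% called higher), and without the block 0.65 (adjusted p = 0.561). When both libraries numbered 3 were left out, limma called it in RPM with no block (log2 fold change 1.12, adjusted p = 0.0160). There 40 of the 103 miRNAs fitted were called higher and 4 lower, miR-181a-5p and miR-222-3p being among the higher.

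The balance between the family's main members differed in the same way. miR-181b-5p reads came to 18.6%, 21.6% and 36.5% of miR-181a-5p in HFHC-EV, against 11.04%, 8.68% and 28.4% in Chow-EV. The percentage was higher in HFHC-EV in all 3 pairs and highest in replicate 3 of both diets, and the diets overlapped. As a share of miRNA reads, miR-181b-5p was 0.178% (exact binomial 95% confidence interval 0.141 to 0.221), 0.204% (0.163 to 0.251) and 0.289% (0.249 to 0.333) in HFHC-EV, against 0.114% (0.0787 to 0.159), 0.0903% (0.0585 to 0.133) and 0.236% (0.191 to 0.289) in Chow-EV. The intervals of the pair numbered 2 did not overlap, and those of the pairs numbered 1 and 3 did.

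Summed over its 4 members, the miR-181 family took nearly the same part of the miRNA signal in every library. The sum was 30.4 ± 6.92 RPM in HFHC-EV and 18.8 ± 3.78 RPM in Chow-EV (SD, n = 3 each), and the diets did not overlap. As a percentage of the listed miRNA signal it was 1.15, 1.15 and 1.11 in HFHC-EV, against 1.16, 1.13 and 1.10 in Chow-EV. The summed signal of all listed miRNAs was itself 1.61 times as high in HFHC-EV, beside 1.62 times for the family. RPM is relative to the reads of each library, so it does not measure the number of vesicles. The listed miRNAs summed to only 1375 to 3441 RPM per library, and no source used here states what else the denominator holds. More miRNA and fewer other reads in the denominator cannot be told apart in these values.

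**Figure D2:**
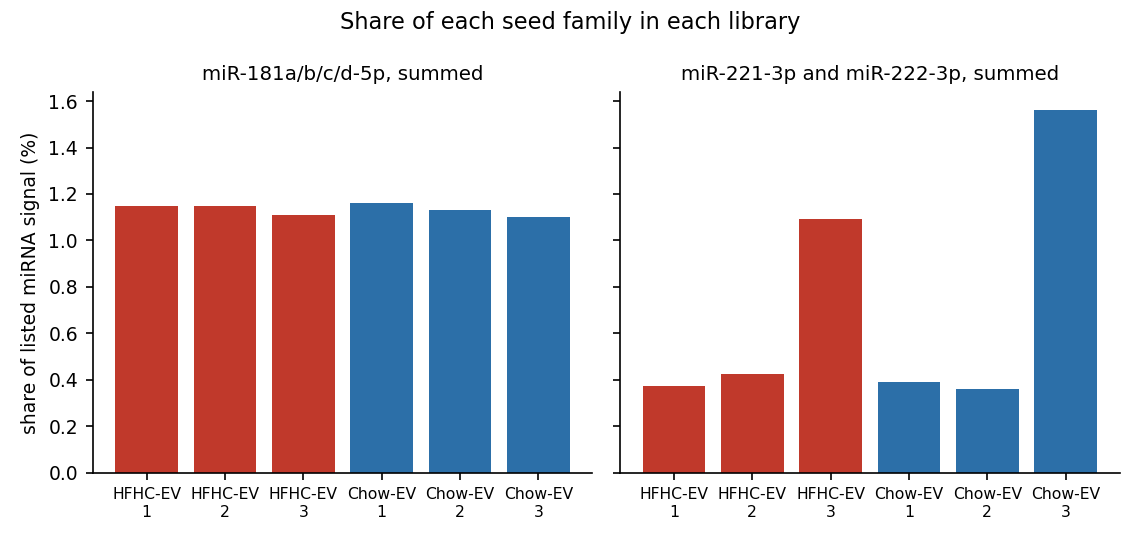
Share of the listed miRNA signal (y axis, %, from 0) taken by the summed miR-181 members (left) and by miR-221-3p with miR-222-3p (right) in each library, HFHC-EV in red and Chow-EV in blue. The miR-181 bars lie between 1.10% and 1.16%, while the miR-221 and miR-222 bars of replicate 3 reach 1.09% in HFHC-EV and 1.56% in Chow-EV.

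miR-181c-5p and miR-181d-5p were rare. miR-181c-5p had 1, 0 and 10 reads in HFHC-EV and 2, 0 and 6 in Chow-EV, and miR-181d-5p had 5, 0 and 10 in HFHC-EV and 3, 0 and 7 in Chow-EV. Both had no read in either replicate 2 and most of their reads in replicate 3. With means under 1 RPM they did not enter the main fit, and in the fit to all 422 miRNAs with reads their log2 fold changes were 0.050 (95% confidence interval −0.42 to 0.52, limma adjusted p = 0.937) and 0.096 (−0.38 to 0.58, adjusted p = 0.852). There 14.2% were called higher and 5.21% lower. A difference between the diets was not detectable at this depth.

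miR-222-3p and miR-221-3p varied far more with the replicate number than with the diet. miR-222-3p had 7.41, 7.71 and 29.2 RPM in HFHC-EV, against 5.02, 4.32 and 26.2 RPM in Chow-EV. miR-221-3p had 1.57, 1.62 and 8.37 RPM in HFHC-EV, against 0.973, 0.646 and 6.31 RPM in Chow-EV. In both diets replicate 3 stood far above the others, and the diets overlapped.

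Against the mean of replicates 1 and 2, replicate 3 held 3.86 times as much miR-222-3p in HFHC-EV and 5.61 times in Chow-EV. For miR-221-3p it held 5.26 times as much in HFHC-EV and 7.80 times in Chow-EV. For miR-181b-5p the ratios were 2.27 in HFHC-EV and 3.30 in Chow-EV, and for miR-181a-5p 1.25 and 1.15. Over the tested miRNAs the median ratio was 1.24 in HFHC-EV, against 1.19 in Chow-EV. A ratio of at least 3 in both diets was reached by 17.3% of them (18 of 104), among which were miR-221-3p and miR-222-3p, and replicate 3 was the highest library of both diets for 59.6%, all 4 tested members included.

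**Figure D3:**
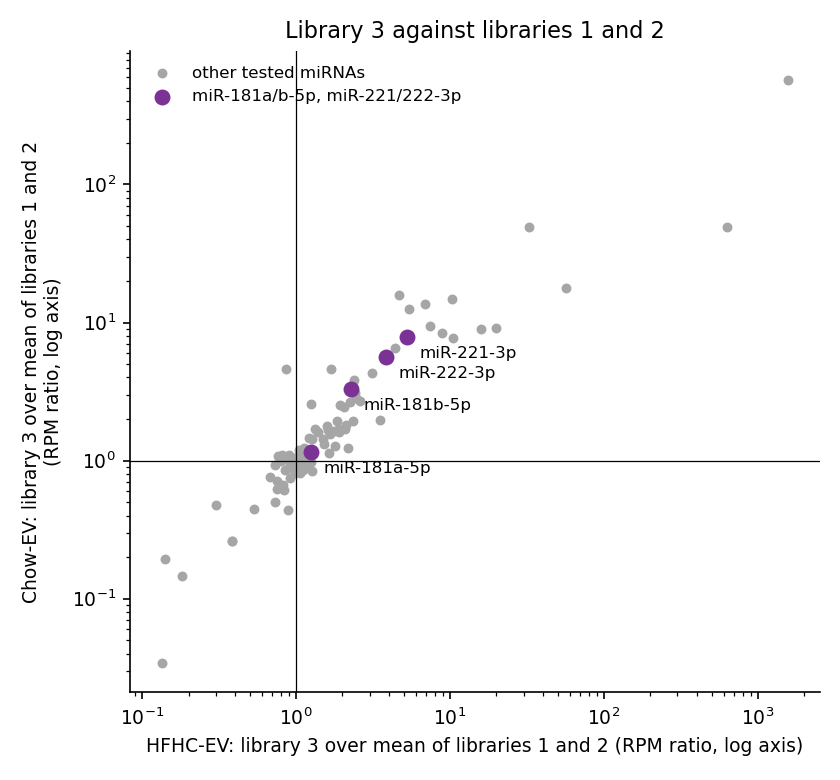
RPM of replicate 3 over the mean of replicates 1 and 2 in HFHC-EV (x axis, log scale) and Chow-EV (y axis, log scale) for the 100 tested miRNAs with both ratios above 0, the 4 tested members in purple. miR-221-3p and miR-222-3p lie above 3 on both axes, and miR-181a-5p lies near 1.

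The summed endothelial and stellate cell markers were not at their highest in replicate 3. The endothelial list (miR-126a-3p and miR-126a-5p, 2 of 2 listed) summed to 4.34 RPM in HFHC-EV replicate 3, against 9.49 and 2.19 RPM in HFHC-EV replicates 1 and 2, and to 1.55 RPM in Chow-EV replicate 3, against 5.94 and 0.497 RPM in Chow-EV replicates 1 and 2. The stellate or mesenchymal list (5 of 8 listed) ranged from 1.77 to 3.86 RPM in HFHC-EV and from 0.206 to 1.84 RPM in Chow-EV. Both lists were higher in replicate 1 than in replicate 3 in both diets. Replicate 3 lay above replicate 2 for the endothelial list in both diets, and for the stellate list in HFHC-EV only (2.51 against 1.77 RPM). Most of the endothelial sum came from miR-126a-3p, and most of the stellate sum from miR-143-3p except in Chow-EV replicate 3. The stellate sum of that library, 0.206 RPM, came from miR-199a-3p and miR-199b-5p alone, at 0.103 RPM each. With 1 read worth about 0.05 RPM, that is a few reads. Whether such cells contributed to the replicate 3 levels of miR-221-3p and miR-222-3p was not tested. Of the low markers, miR-199b-5p had reads in replicate 3 of both diets and in no other library (0.105 RPM in HFHC-EV and 0.103 RPM in Chow-EV), and miR-199a-3p was highest in replicate 3 in HFHC-EV (0.262 RPM). miR-143-3p and miR-145a-5p had no read in Chow-EV replicate 3. Replicate 3 had the most miRNAs with reads, 329 in HFHC-EV and 282 in Chow-EV, against 235 and 204 in HFHC-EV replicates 1 and 2 and 219 and 188 in Chow-EV replicates 1 and 2. The library totals behind the RPM values were nearly equal, and replicate 3 had the smallest of its diet, 19114800 reads in HFHC-EV and 19330400 reads in Chow-EV.

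Between the diets, miR-222-3p averaged 14.8 ± 12.5 RPM in HFHC-EV and 11.8 ± 12.4 RPM in Chow-EV (SD, n = 3 each; log2 fold change 0.45, 95% confidence interval −1.73 to 2.63, limma adjusted p = 0.790). miR-221-3p averaged 3.85 ± 3.92 RPM in HFHC-EV and 2.64 ± 3.18 RPM in Chow-EV (log2 fold change 0.47, 95% confidence interval −1.60 to 2.54, adjusted p = 0.766). When HFHC-EV replicate 3 was left out, the log2 fold changes were −0.158 for miR-222-3p and −0.15 for miR-221-3p, and without Chow-EV replicate 3 they were 1.203 and 1.14. Within the 3 pairs HFHC-EV was 1.48, 1.78 and 1.12 times as high for miR-222-3p and 1.61, 2.50 and 1.33 times for miR-221-3p. With the replicate block, and its pooled variance, both were called higher in RPM (limma adjusted p = 0.00299 for miR-222-3p and 0.00452 for miR-221-3p). With the block after TMM scaling neither was called, and the log2 fold changes were −0.13 (limma adjusted p = 0.467) for miR-222-3p and 0.062 (adjusted p = 0.764) for miR-221-3p. In edgeR on whole reads with the authors' denominator and the block, a fit chosen after seeing the data, all 4 tested members were called higher (adjusted p = 6.36e-04 for miR-181b-5p, 0.00549 for miR-181a-5p, 0.0302 for miR-221-3p and 0.0409 for miR-222-3p), as were 65.4% of the tested miRNAs, with 7.69% called lower. The same edgeR fit without the block called none of the members (adjusted p = 0.249 for miR-181b-5p, 0.0623 for miR-181a-5p, 0.8285 for miR-221-3p and 0.875 for miR-222-3p). There 22 of the 104 tested miRNAs were called higher and 4 lower.

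**Figure D4:**
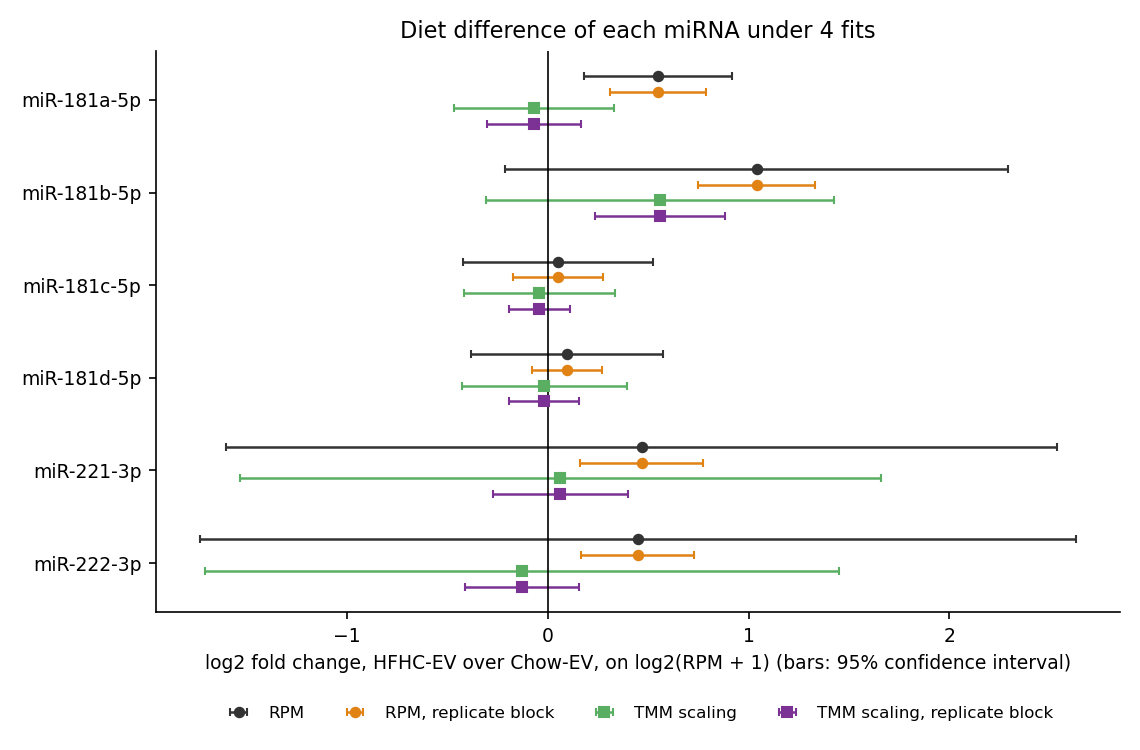
Log2 fold change of HFHC-EV over Chow-EV on the log2(RPM + 1) scale (x axis) for each miRNA (y axis) under 4 limma settings, with 95% confidence intervals as bars. miR-181c-5p and miR-181d-5p were fitted with all 422 miRNAs with reads, the other members with the 104 tested miRNAs. Squares (TMM scaling) lie left of circles (RPM) for every miRNA, and miR-181b-5p is the one whose interval stays above 0 with TMM scaling and the replicate block.

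The products of the X-linked cluster were counted at 4.73, 4.78 and 3.49 miR-222-3p reads per miR-221-3p read in HFHC-EV and 5.16, 6.69 and 4.15 in Chow-EV. The ratio was lowest in replicate 3 of each diet. Over the 6 libraries miR-221-3p was the tested miRNA whose log2(RPM + 1) was most like that of miR-222-3p (Pearson r = 0.997), followed by miR-29a-3p (0.991), of an anti-fibrotic family, and miR-27a-3p (0.984). miR-27a-3p had 8.87, 6.77 and 80.4 RPM in HFHC-EV and 5.63, 1.84 and 54.9 RPM in Chow-EV, so it too was highest in replicate 3. miR-181a-5p was most like let-7d-5p (0.986), miR-26a-5p (0.983) and miR-328-5p (0.977), while miR-181b-5p came 28th for it with r = 0.900. These correlations describe 6 libraries that differ in total miRNA signal.

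The opposite arms of the hairpins were scarce. They are shown for miR-181a because they, unlike the 5p arm, differ between its 2 loci (U5C and U16C, with the miR-181a-1-3p base first), with bases 2 to 8 in capitals.
miR-181a-1-3p: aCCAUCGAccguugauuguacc
miR-181a-2-3p: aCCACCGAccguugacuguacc

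miR-181a-1-3p, from the chromosome 1 locus, had 1 read in HFHC-EV and 2 in Chow-EV, all in replicate 3. miR-181a-2-3p had none in any library, which allows up to 0.00119% of the 251957 miRNA reads. miR-181c-3p had 2 reads in HFHC-EV and 1 in Chow-EV, and miR-222-5p 1 in HFHC-EV and 0 in Chow-EV. miR-221-5p was better covered, with 4, 2 and 27 reads in HFHC-EV and 0, 0 and 19 in Chow-EV. In replicate 3 it made up 14.4% of the reads of both miR-221 arms in HFHC-EV (exact binomial 95% confidence interval 9.74 to 20.3) and 13.5% in Chow-EV (8.31 to 20.2), so a difference in arm balance there was not detectable at this depth. Its log2 fold change in the fit to all miRNAs with reads was 0.23 (95% confidence interval −0.78 to 1.25, limma adjusted p = 0.843).

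Other miRNAs of the same fields were set beside the members. Of a vascular inflammation list 11 of 17 were tested, and 2 rose in HFHC-EV in RPM and 0 fell, beside 24.0% and 4.81% of all tested miRNAs: miR-31-5p, which restrains endothelial adhesion molecules (90.9 ± 18.4 RPM in HFHC-EV and 43.0 ± 12.7 RPM in Chow-EV, limma adjusted p = 0.0308), and let-7g-5p (59.9 ± 3.58 RPM in HFHC-EV and 42.8 ± 3.28 RPM in Chow-EV, adjusted p = 0.0185). The list's median log2 fold change was 0.82, beside 0.51 for all tested miRNAs. Of a liver fibrosis list 7 of 19 were tested, and 2 rose and 0 fell, with a median of 0.70: the p53-induced miR-34a-5p (52.0 ± 6.11 RPM in HFHC-EV and 26.6 ± 2.75 RPM in Chow-EV, adjusted p = 0.00630) and the hepatocyte-enriched miR-192-5p (12.6 ± 0.374 RPM in HFHC-EV and 4.75 ± 0.902 RPM in Chow-EV, adjusted p = 0.00375). After TMM scaling the median log2 fold changes were 0.22 for the vascular list and 0.31 for the fibrosis list, beside 0.066 for all tested miRNAs. None of these 4 miRNAs was called there. Their log2 fold changes were 0.68 for miR-192-5p, 0.44 for miR-31-5p, 0.31 for miR-34a-5p and −0.16 for let-7g-5p. The lists share miR-21a-5p and miR-155-5p, and miR-155-5p, named here after its values were seen (0.853 ± 0.397 RPM in HFHC-EV and 1.93 ± 0.699 RPM in Chow-EV), was the 1 miRNA of either list called lower after TMM scaling (limma adjusted p = 0.0351). With the replicate block in RPM, 8 of the vascular list rose and 1 fell, and 5 of the fibrosis list rose and 1 fell, beside 66.3% and 7.69% of all tested miRNAs. With the block after TMM scaling, 5 of the vascular list rose and 2 fell, and 3 of the fibrosis list rose and 1 fell. There 29.8% of all tested miRNAs were called higher and 19.2% lower. miR-192-5p, miR-31-5p and miR-34a-5p were among those that rose (limma adjusted p = 0.000371, 0.000663 and 0.0127), and let-7g-5p was not called.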

How the data were processed

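Small RNA of vesicles was gel-selected, ligated to adapters and amplified, per the labels' protocols. The submitters' processing notes name Bowtie2 and GRCm38.p6; no source used here gives the trimming, annotation or multi-mapping rules. The authors deposited RPM, 1 table per library, with an unstated denominator wider than the listed miRNAs. Whole reads were recovered from the RPM steps (100% of values whole within 0.1 of a read in every library).

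Members, lists and tests were chosen with earlier results of these data known. limma-trend (limma 3.58.1, R 4.3.3) compared HFHC-EV with Chow-EV on log2(RPM + 1) over the 104 miRNAs averaging 1 RPM or more, Benjamini-Hochberg adjusted at 0.05. It was tested on simulated data, which held no replicate effect and no difference shared by most miRNAs. That test therefore does not cover these features of the libraries. No label ties the replicate numbers to shared mice or days, but deviations from the diet means correlated at 0.945, 0.894 and 0.946 between same-numbered libraries, so the number was also fitted as a block. That fit has 208 total degrees of freedom in RPM (21.1 after TMM scaling), against 5.18 without it, so its p rest on a pooled variance. edgeR (4.0.16) and DESeq2 (1.42.0) were run on recovered reads; edgeR called 1 miRNA higher and 5 lower. Named miRNAs are the members, their other arms, called list members (up to 4), and the 3 most alike in pattern. Replicates of a diet differed by more than sampling noise, with a chi-square over its degrees of freedom of 21.4 or more. Loci come from RefSeq and GENCODE M21, both GRCm38.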

Additional observations from a re-analysis of the deposited data

How the results depend on the processing

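With 3 libraries per diet and 27673 to 65775 miRNA reads in each, members with a few reads have no measurable diet difference, and no source ties the replicate numbers to shared animals. Values below are log2 fold changes unless called counts, with those of miR-181c-5p and miR-181d-5p taken from fits to all miRNAs with reads. Scaling turned the sign of several members. miR-181a-5p was −0.068 with TMM scaling, with and without the replicate block, −0.10 scaled to the miRNA total, −0.10 with RLE scaling, −0.076 in edgeR, −0.11 in DESeq2 and −0.070 in edgeR with the replicate block. It lost its call at 0.55 without the filter (limma adjusted p = 0.089), at 0.38 with a pseudocount of 10 (0.0512) and at 0.58 in edgeR with the authors' denominator (edgeR adjusted p = 0.0623). miR-222-3p was −0.13 with TMM scaling, with and without the block, −0.16 scaled to the total, −0.16 with RLE scaling, −0.28 in edgeR, −0.33 in DESeq2 and −0.17 in edgeR with the block. miR-221-3p was −0.057 in edgeR and −0.11 in DESeq2. miR-181c-5p was −0.042 with TMM scaling, with and without the block, −0.041 scaled to the total, −0.023 with RLE scaling, −0.28 in edgeR, −0.15 in DESeq2 and −0.47 in edgeR with the block. miR-181d-5p was −0.018 with TMM scaling, with and without the block, −0.010 scaled to the total, −0.12 in edgeR and −0.11 in edgeR with the block.

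With the replicate block, calls were gained by miR-181b-5p (1.04 in RPM, 0.56 with TMM scaling, 0.68 in edgeR and 1.32 in edgeR with the authors' denominator), by miR-221-3p (0.47 in RPM and 0.66 in edgeR with the authors' denominator) and by miR-222-3p (0.45 and 0.48 in the same fits). The block changed no other member's call in RPM. The edgeR fits with the authors' denominator were chosen after seeing the data. The log2 ratio of the miR-181 sum was 0.70 in RPM and 0.0059 as a share of the miRNA signal.

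The count of miRNAs called higher, 25, became 1 with TMM scaling, 1 scaled to the total, 2 with RLE scaling, 60 without the filter, 69 with the block, 1 in edgeR, 7 in DESeq2 and 68 in edgeR with the authors' denominator and the block. The count called lower, 5, became 22 without the filter, 1 under a filter at 5 RPM, 8 with the block in RPM, 20 with the block after TMM scaling, 12 in DESeq2, 20 in edgeR with the block and 8 in edgeR with the authors' denominator and the block.

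Leaving out 1 library, or both of a number, gave 0 to 40 called higher and 0 to 4 called lower. A count of 0 higher came without the pair numbered 1 and without the pair numbered 2, where 21 and 19 miRNAs were higher with an unadjusted limma p under 0.05, and the 40 without the pair numbered 3. The log2 fold changes then ranged from 0.45 to 0.64 for miR-181a-5p, 0.70 to 1.46 for miR-181b-5p, −0.14 to 0.16 for miR-181c-5p, −0.050 to 0.25 for miR-181d-5p, −0.15 to 1.14 for miR-221-3p and −0.158 to 1.203 for miR-222-3p. miR-221-3p and miR-222-3p were below 0 when HFHC-EV replicate 3 was left out. With neither library of number 3 in the fit, miR-222-3p was called higher at 0.60 (limma adjusted p = 0.0367) and miR-181a-5p stayed called (0.0338). The causes were not tested.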

Other observations

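Beside the members, miR-29a-3p, whose family restrains collagen genes, followed the replicate number in the same way, with 1.88, 1.36 and 11.1 RPM in HFHC-EV and 0.614, 0.447 and 7.24 RPM in Chow-EV. miR-26a-5p, the second closest in pattern to miR-181a-5p, had 57.8, 52.8 and 96.7 RPM in HFHC-EV and 28.2, 23.7 and 42.2 RPM in Chow-EV, and the diets did not overlap.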
